A study of Mus musculus with 22 samples.

Results

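Among the 55414 genes of the count table, 7 that encode secreted acute-phase and antimicrobial proteins were examined: Saa1, Saa2 and Saa3 (serum amyloid A), Lcn2 (lipocalin 2), Hp (haptoglobin), Reg1 and Reg3g (lectins of the Reg family). They were taken by symbol, and they had been picked because they were high in fibroblasts of expanded skin. Their differences between treated and control libraries are therefore given as descriptions without a test. RNA came from fibroblasts sorted from mouse back skin on day 1, day 2 or day 4. All mice had an operation in which a path was opened under the skin from near the tail to the neck. In EXP mice a hydrogel expander, an implant meant to stretch the skin above it, was left near the neck, while CTRL mice got none. Both arms thus share the wound and differ by the implant and the stretch together, which cannot be told apart. CTRL comprised 4 libraries on day 1, 3 on day 2 and 4 on day 4, and EXP comprised 5, 3 and 3. The sort removed cells with CD31, CD45, CD117 or EpCAM and kept live CD34+ PDGFRα+ cells. Strain, sex and age are not given in the labels, and nothing there says how many mice gave cells to a library, so p-values measure the spread between these libraries.

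Acute-phase proteins are the secreted proteins whose synthesis climbs within hours of injury or infection, mostly in the liver, when IL-6 family cytokines act through STAT3 and IL-1 and TNF act through NF-κB and C/EBP factors. Serum amyloid A proteins bind lipids and travel on high-density lipoprotein; in mice Saa1 and Saa2 are the main liver forms and Saa3 is made largely outside the liver. Lipocalin 2 starves bacteria of iron by binding their siderophores, haptoglobin captures free haemoglobin, and REG3G is a lectin that kills Gram-positive bacteria at epithelial surfaces.

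Because Saa1 and Saa2 are near copies, their sequences were compared before their counts were read. The coding sequences of both are 369 bases long and differ at 18 positions (95.1% identity). Of the 460 windows of 150 bases in the Saa1 transcript, the length of one sequenced read, 0 occur unchanged in Saa2, while 13.2% of its 50-base windows do. Saa3 is further off, with 76.1% identity to Saa1 and 75.1% to Saa2, and Reg1 and Reg3g share 57.5%. How the counting treated reads that fit several genes is not given in the sources used here, so the split between Saa1 and Saa2 is uncertain. No member has an exon that overlaps an exon of another gene in GENCODE M21. The 150 coding bases from the start codon of each are shown to let the difference be seen, with the 11 positions that differ in capitals.
Saa1: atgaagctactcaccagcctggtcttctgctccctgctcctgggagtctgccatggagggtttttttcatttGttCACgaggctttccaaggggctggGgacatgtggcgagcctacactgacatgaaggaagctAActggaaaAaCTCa
Saa2: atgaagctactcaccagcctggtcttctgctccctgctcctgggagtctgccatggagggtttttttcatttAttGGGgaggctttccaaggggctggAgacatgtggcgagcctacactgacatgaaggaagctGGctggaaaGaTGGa

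The bases upstream of the annotated start are shown for the serum amyloid A genes and Lcn2, which held the 2 most closely correlated pairs of members. They were taken from RefSeq by symbol in build GRCm38.p6, which held 6 of the 7 members; the counts themselves were made on mm39. Capitals mark matches to a C/EBP motif (TTNNGNAA) or a κB motif (GGGANNNNCC or GGGGNNNNCC), searched on both strands. Positions count back from the RefSeq start. The windows are chr7:46742981-46743230 (minus strand) for Saa1, chr7:46751583-46751832 (plus strand) for Saa2, chr7:46715701-46715926 (minus strand) for Saa3 and chr2:32387798-32387989 (minus strand) for Lcn2; the last 2 are shorter because bases that GENCODE places in a transcript were left out.
Saa1: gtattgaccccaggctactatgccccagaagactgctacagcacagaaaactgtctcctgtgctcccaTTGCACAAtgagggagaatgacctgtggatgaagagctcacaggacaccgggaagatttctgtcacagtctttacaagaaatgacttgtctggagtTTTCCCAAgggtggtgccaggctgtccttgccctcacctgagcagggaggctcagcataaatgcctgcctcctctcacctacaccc
Saa2: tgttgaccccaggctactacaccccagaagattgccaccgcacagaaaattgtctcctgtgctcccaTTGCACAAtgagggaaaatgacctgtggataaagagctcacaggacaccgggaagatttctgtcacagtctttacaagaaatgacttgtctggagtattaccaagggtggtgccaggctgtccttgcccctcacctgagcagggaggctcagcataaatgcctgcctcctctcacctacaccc
Saa3: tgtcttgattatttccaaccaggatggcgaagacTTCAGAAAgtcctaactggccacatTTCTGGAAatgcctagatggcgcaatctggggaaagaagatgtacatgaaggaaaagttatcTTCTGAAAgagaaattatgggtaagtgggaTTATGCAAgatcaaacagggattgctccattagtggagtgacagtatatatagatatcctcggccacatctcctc
Lcn2: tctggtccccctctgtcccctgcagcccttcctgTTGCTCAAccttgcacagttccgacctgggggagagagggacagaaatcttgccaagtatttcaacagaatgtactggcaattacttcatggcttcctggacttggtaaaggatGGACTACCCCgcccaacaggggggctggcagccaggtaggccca
The Saa1 and Saa2 windows are 94.8% identical. Both hold the C/EBP match TTGCACAA, at -182 to -175 in Saa1 and -183 to -176 in Saa2, and Saa1 has another at -86 to -79. Saa3 has 4 C/EBP matches. Lcn2 has 1 C/EBP match at -216 to -209 and 1 κB match at -102 to -93. Such matches are common: among 32851 RefSeq promoters, 36.8% of 250-base windows hold a C/EBP match and 28.4% a κB match. For windows cut to the length of Saa3 the C/EBP share is 34.8%, and for the length of Lcn2 the shares are 31.4% and 21.6%. A match is a string of letters and not a shown binding site. A STAT motif (TTCNNNGAA, in 7.0% of 250-base windows) and an AP-1 motif (TGANTCA, 6.7%) were searched too. Neither was found in these 4 windows, which says only that these letters do not occur there.

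Totals per library ran from 21461294 to 30210204 counts, and all 7 members passed the filter on low counts that left 17554 genes for testing. That filter lets a gene pass through the EXP libraries alone, which is how Reg1 and Reg3g entered. Levels are CPM, that is counts scaled to a common library total, here with TMM factors. The genes of the sort markers were as labelled: Pdgfra lay between 227.3 and 1023 CPM and Cd34 between 216.5 and 2348 CPM, while Ptprc (CD45) did not exceed 0.243 CPM, Kit (CD117) 0.699 CPM, Epcam 2.09 CPM and Pecam1 (CD31) 3.68 CPM. A set of 192 genes separated 7 libraries (3 CTRL and 2 EXP of day 1, 2 CTRL of day 4) from the other 15. These genes were chosen from the same data, by a correlation over 0.9 with Rnf10 after group means were removed. The libraries were cut at the largest gap in the mean log2 CPM of these genes (0.696), so some separation was fixed in advance. This split is no label of the study, and values within it are given where they differ.

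The 7 genes fell into early and late patterns in EXP skin. Saa1 and Saa2 were highest on day 1, and Saa3 and Lcn2 were high on all 3 days. The means of Hp and Reg3g were lowest on day 1 and higher later, though the Hp libraries of days 1 and 2 overlapped. Reg1 was highest on day 4 with a wide spread. The numbers of members that passed edgeR's threshold in the direction of EXP were 5 of 7 on day 1, 6 of 7 on day 2 and 5 of 7 on day 4, where 13.9%, 7.72% and 12.8% of all tested genes did. Every EXP library was above every CTRL library for 4 members on day 1 (11.7% of all tested genes), 7 on day 2 (20.9%) and 5 on day 4 (13.8%). As the same contrasts chose the members, these counts carry no evidence. In bulk RNA, fewer cells that make a transcript and less of it per cell cannot be told apart.

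**Figure D1:**
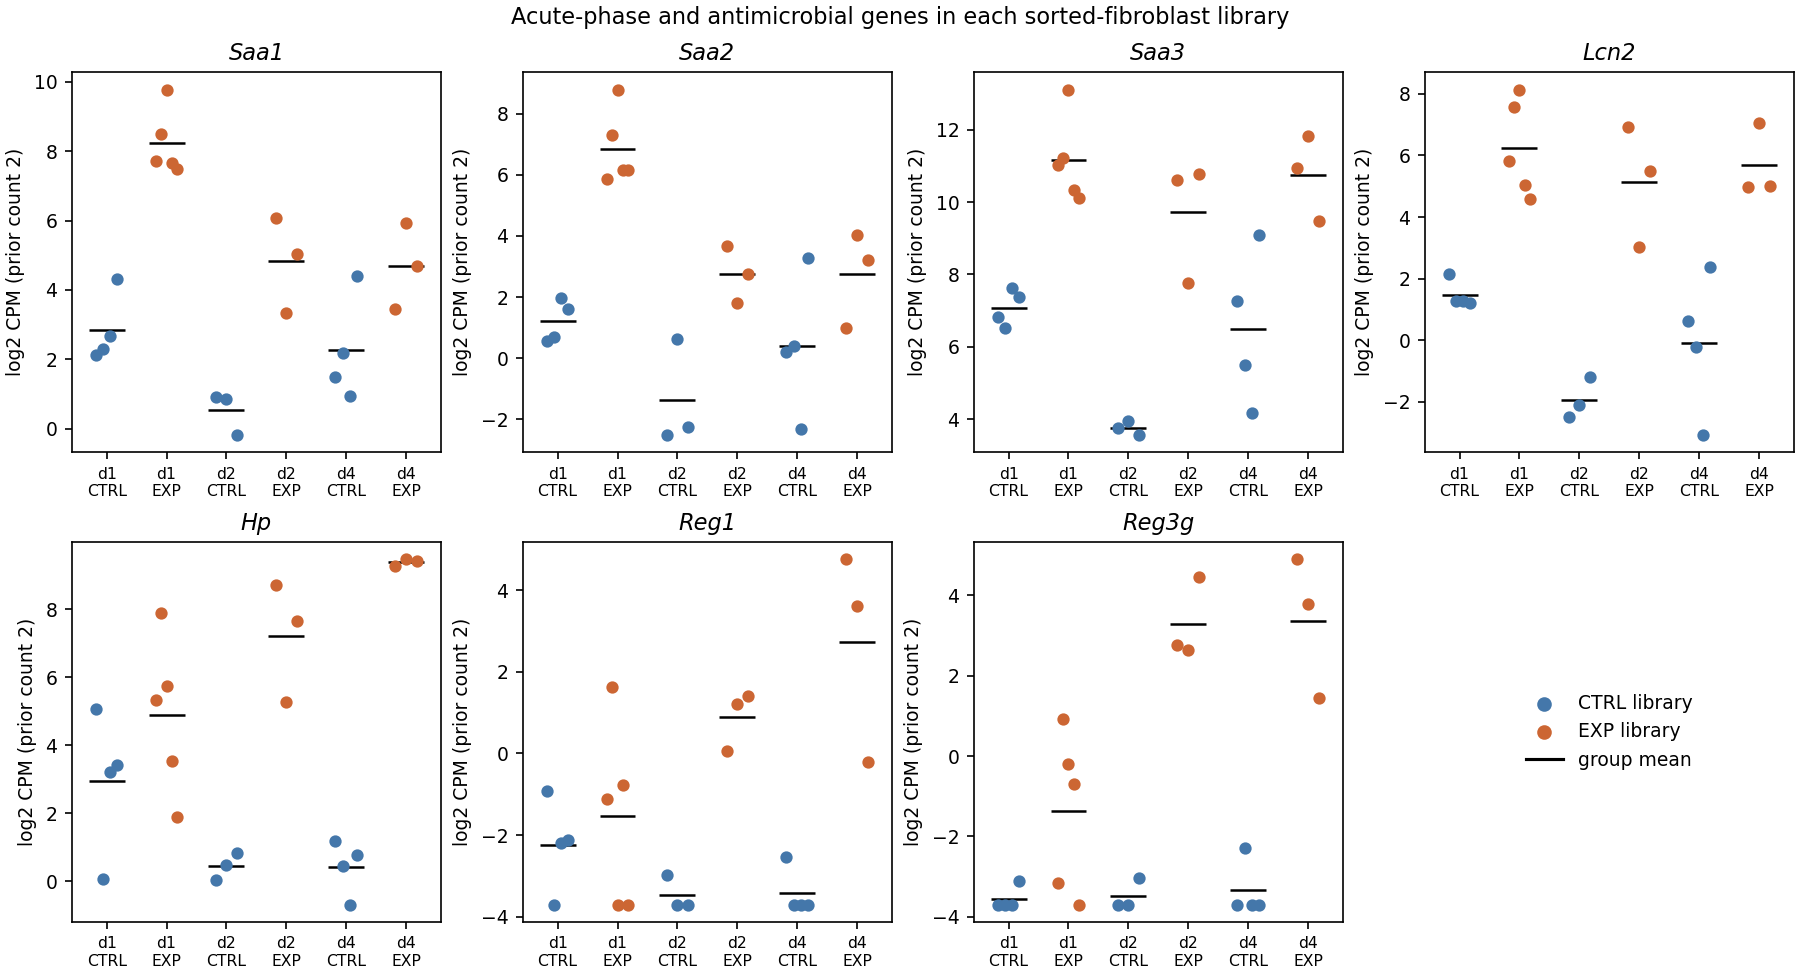
Log2 CPM (prior count 2) of each gene in the 22 libraries, by day and arm; each point is a library and the black line is the group mean. Hp sits between 612.6 and 708.6 CPM in the 3 EXP libraries of day 4, whereas Saa1 and Saa2 are highest in the 5 EXP libraries of day 1.

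Saa3 (ENSMUSG00000040026) was the most abundant of the members in each of the 6 groups, also per kilobase of transcript. On day 1 it stood at 113.4, 91.6, 196.1 and 164.9 CPM in CTRL and at 2070, 2377, 8842, 1296 and 1111 CPM in EXP. The 2 arms did not overlap, and EXP replicate 3 was far above the other 4. There Saa3 took 1.02% of all counts and ranked 8 among all genes of the library. The log2 fold change was 4.47 (SE 0.95), and 3.60 when that library was left out. The mean of the other 4 was 1714 ± 606.8 CPM (SD).

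On day 2 Saa3 was at 13.5, 15.4 and 11.8 CPM in CTRL and at 1565, 215.5 and 1759 CPM in EXP, a log2 fold change of 6.44 (SE 1.23). The lowest EXP library, replicate 2, was also the lowest for Saa1, Saa2, Lcn2 and Hp, and narrowly for Reg3g (6.14 against 6.73 CPM in replicate 1). On day 4 CTRL spread widely, at 154.2, 45.4, 17.9 and 540 CPM, against 1982, 3606 and 712.1 CPM in EXP. The arms still did not overlap, and the log2 fold change was 3.47 (SE 0.95). It was 4.86 without CTRL replicate 4, the library with 540 CPM, and 2.84 without EXP replicate 2. By count, Saa3 ranked 235 to 6949 among all genes in CTRL libraries, and in EXP it ranked 8 to 94 on day 1, 41 to 563 on day 2 and 24 to 163 on day 4.

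Saa1 (ENSMUSG00000074115) had its highest values on day 1. CTRL was at 4.29, 4.83, 6.33 and 19.96 CPM and EXP at 209, 359.9, 877.4, 201.9 and 177.7 CPM, with a log2 fold change of 5.36 (SE 0.90) that ran from 4.74 without EXP replicate 3 to 6.14 without CTRL replicate 4. On day 2 CTRL was at 1.79, 1.72 and 0.809 CPM and EXP at 67.6, 10.1 and 33.0 CPM, with a log2 fold change of 4.68 (SE 1.06), which was 3.91 without EXP replicate 1. The arms were apart on both days. On day 4 they overlapped: CTRL was at 2.76, 4.50, 1.84 and 20.9 CPM and EXP at 10.8, 60.9 and 25.5 CPM. The day 4 log2 fold change was 2.11 (SE 0.83), and it ranged from 1.27 without EXP replicate 2 to 3.41 without CTRL replicate 4.

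Saa2 (ENSMUSG00000057465) moved in the same way at a lower level. On day 1 it was at 1.40, 1.53, 3.86 and 2.95 CPM in CTRL and at 57.5, 156.3, 440.8, 71.1 and 71.2 CPM in EXP, and the log2 fold change of 6.02 (SE 1.07) was the largest of the serum amyloid genes on that day, and it was 5.19 without EXP replicate 3. On day 2 it was at 0.0996, 1.46 and 0.135 CPM in CTRL and at 12.8, 3.38 and 6.60 CPM in EXP, with a log2 fold change of 3.78 (SE 1.28). That value ran from 3.18 without EXP replicate 1 to 5.95 without CTRL replicate 2. On day 4 CTRL was at 1.06, 1.24, 0.126 and 9.52 CPM and EXP at 1.91, 16.1 and 9.25 CPM. These overlapped, with a log2 fold change of 1.59 (SE 0.98) that ran from 0.89 without EXP replicate 2 to 3.48 without CTRL replicate 4.

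Within EXP, every day 1 library was above every day 2 library for Saa1 and Saa2 only among the members (5.59% of all tested genes had that order), and above every day 4 library for the same 2 (7.95%). The day 1 mean was 9.9 times the day 2 mean and 11.3 times the day 4 mean for Saa1, and 17.6 times the day 4 mean for Saa2. Without day 1 EXP replicate 3 these ratios fell to 6.43, 7.31 and 9.80, and they reached 17.0 without day 2 EXP replicate 1 and 20.1 and 28.6 without day 4 EXP replicate 2. For Saa3 the days overlapped and the order of the means rested on single libraries. Its day 1 mean was 2.66 times that of day 2 and 1.49 times that of day 4, but 1.45 and 0.816 times without day 1 EXP replicate 3. The ratio to day 4 was 2.33 without day 4 EXP replicate 2. The make-up of the serum amyloid counts was then read per library. In EXP the share of Saa3 among the counts of all 3 genes was 81.7 to 88.6% on day 1 (median 82.6%), 94.1 to 97.8% on day 2 and 95.3 to 99.4% on day 4. In CTRL it was 87.8 to 95.2%, 82.8 to 92.6% and 88.8 to 97.6%. The share of Saa1 in the sum of Saa1 and Saa2 overlapped between the days in EXP, at 66.6 to 78.4%, 74.9 to 84.1% and 73.4 to 85.1%. Where CTRL had few such counts, from 21 to 61 per library on day 2, that share spread from 54.1 to 94.7%.

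**Figure D2:**
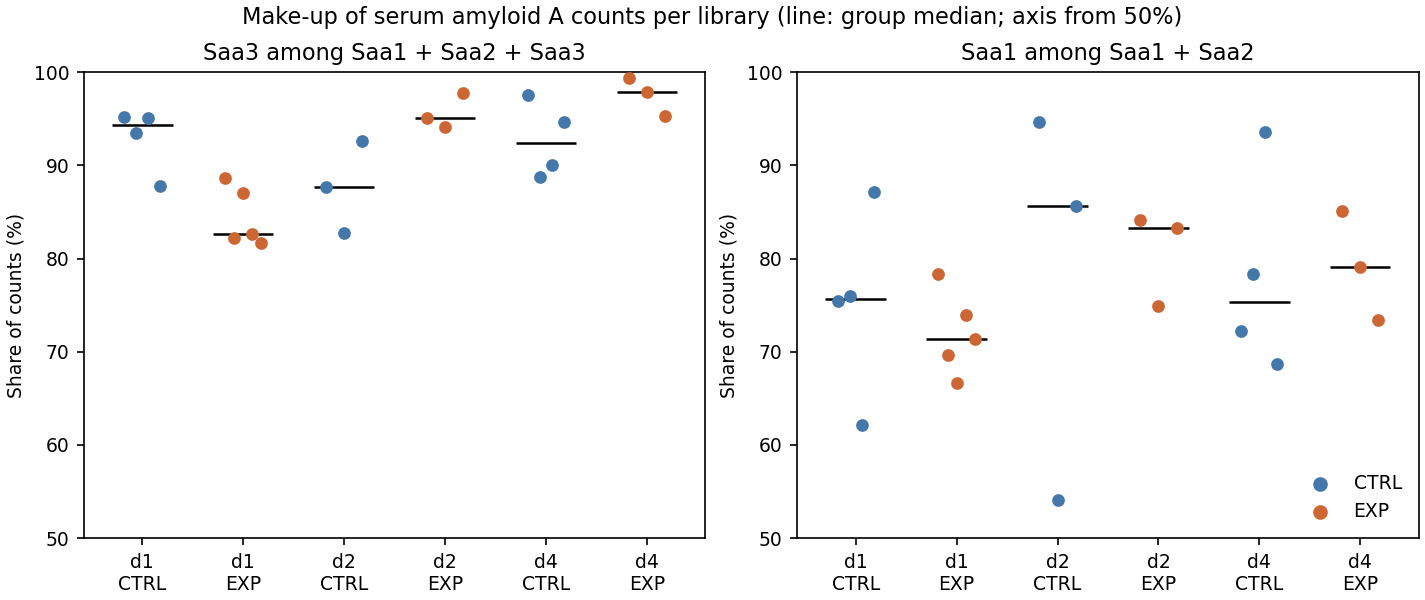
Share of Saa3 in the counts of Saa1, Saa2 and Saa3 (left) and of Saa1 in those of Saa1 and Saa2 (right), in percent, per library with the group median as a line; the axes start at 50%. The 5 EXP libraries of day 1 lie at 81.7 to 88.6% on the left, below the 94.1 to 99.4% of the 6 later EXP libraries.

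Lcn2 (ENSMUSG00000026822) was scarce in CTRL and clearly present in EXP on each day, with no overlap on any of them. On day 1 it was at 4.37, 2.33, 2.36 and 2.22 CPM in CTRL and at 56.8, 189.5, 282.3, 32.8 and 24.1 CPM in EXP (log2 fold change 5.38, SE 1.03, and 4.74 without EXP replicate 3). On day 2 it was at 0.0996, 0.157 and 0.360 CPM in CTRL, which is only 2, 3 and 8 counts, and at 122.1, 8.03 and 44.5 CPM in EXP (8.08, SE 1.51). The size of this log2 fold change is uncertain with so few CTRL counts, and it ran from 6.94 without EXP replicate 1 to 8.76 without CTRL replicate 3. On day 4 Lcn2 was at 1.45, 0.772, 0.0419 and 5.07 CPM in CTRL and at 31.6, 132.3 and 31.8 CPM in EXP (5.15, SE 1.07), with a range from 4.11 without EXP replicate 2 to 6.45 without CTRL replicate 4. The larger log2 fold change of day 2 goes with the lowest CTRL levels, since the EXP mean was 58.2 CPM on day 2, 65.2 CPM on day 4 and 117.1 CPM on day 1 (75.8 CPM without EXP replicate 3). The differences between days in this contrast were not tested.

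Neutrophils also make lipocalin 2, so their markers stand beside it. The summed level of 10 neutrophil markers was 5.54 to 15.0 CPM in EXP against 2.12 to 4.90 CPM in CTRL on day 1, 17.2 to 20.7 against 1.31 to 3.09 CPM on day 2, and 2.64 to 9.58 against 0.944 to 4.40 CPM on day 4. Of the 3 of these genes that could be tested, 2 were higher in EXP on each day. Mmp8 alone reached 18.2 CPM. S100a8 was at 0.627, 0.275 and 4.74 CPM in EXP replicates 1, 2 and 3 of day 2. It did not exceed 0.0522 CPM in any CTRL library. Camp was at 3.33, 0.0694 and 0.25 CPM in EXP replicates 1, 2 and 3 of day 4, against at most 0.0866 CPM in CTRL of that day. Cxcr2 was at 0 in all 22 libraries, Ly6g did not exceed 0.249 CPM and Retnlg 0.0759 CPM. The EXP library with the most Lcn2 also had the highest neutrophil sum of its group on day 1 (replicate 3, 282.3 CPM and a sum of 15.0 CPM) and on day 2 (replicate 1, 122.1 and 20.7 CPM). On day 4 it had the lowest (replicate 2, 132.3 and 2.64 CPM). Mmp8 alone made up 13.4, 18.2 and 2.43 CPM of these sums, so Lcn2 is set here mainly beside that 1 gene. The macrophage sum was 34.3 to 129.2 CPM in EXP and 40.1 to 164.1 CPM in CTRL. Csf1r alone reached 122.8 CPM in EXP and 158.2 CPM in CTRL. Cd68 was at 7.60 to 20.5 CPM in EXP against 1.65 to 8.66 CPM in CTRL on day 1. It was at 8.54 to 24.9 against 3.19 to 5.22 CPM on day 2, and at 2.01 to 4.86 against 1.43 to 3.68 CPM on day 4. Keratinocyte markers summed to 2.73 to 59.8 CPM over all libraries. In the EXP library with the most Lcn2 they stood at 3.85 CPM on day 1, 5.41 CPM on day 2 and 59.8 CPM on day 4. On day 4 EXP replicates 1 and 3 were at 8.69 and 8.36 CPM, and CTRL was at 6.49 to 30.9 CPM. The part of other cells in the Lcn2 levels was not tested beyond these values.

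Hp (ENSMUSG00000031722) had the opposite course in EXP. On day 1 the arms overlapped, at 33.1, 0.975, 9.23 and 10.6 CPM in CTRL and 40.0, 237.5, 53.5, 11.6 and 3.61 CPM in EXP. The log2 fold change was 2.36 (SE 0.96) and depended on 2 libraries, falling to 1.01 without EXP replicate 2 and reaching 3.31 without CTRL replicate 1. On day 2 Hp was at 0.946, 1.31 and 1.71 CPM in CTRL and at 417.2, 38.3 and 202.7 CPM in EXP (log2 fold change 7.37, SE 1.46, and 6.51 without EXP replicate 1). On day 4 it was at 2.18, 1.29, 0.545 and 1.65 CPM in CTRL and at 612.6, 708.6 and 689.6 CPM in EXP (8.89, SE 1.35). The 3 EXP libraries of day 4 were within a factor of 1.16 of each other, whereas those of day 1 spanned a factor of 65.8.

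Every day 4 EXP library was above every day 2 EXP library (7.99% of all tested genes) and every day 1 EXP library (10.4%) for Hp. The day 4 mean was 9.68 times that of day 1 and 3.05 times that of day 2. The first ratio was 24.7 without day 1 EXP replicate 2 and the second 5.56 without day 2 EXP replicate 1. Days 1 and 2 overlapped in EXP. The day 2 mean was 3.17 times that of day 1, or 1.74 times without day 2 EXP replicate 1 and 8.07 times without day 1 EXP replicate 2. Per kilobase of transcript, Hp was second to Saa3 among the members in EXP on days 2 and 4, with a median of 512.7 CPM per kilobase on day 4 against 3571 for Saa3. On day 1 in EXP Hp was the fifth.

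Fat cells are a known source of haptoglobin outside the liver, and their markers differed between the arms on the later days. On day 4 the sum of 10 adipocyte markers was 23.4 to 40.9 CPM in CTRL and 58.9, 341.0 and 986.9 CPM in EXP replicates 1, 2 and 3, and 7 of the 9 tested markers were higher in EXP. Hp was at 612.6, 708.6 and 689.6 CPM in the same 3 libraries. The markers did not all move alike in EXP replicate 1: Adipoq, a defining fat cell gene, was at 0 and Plin1 at 0.0537 CPM, while Fabp4, a fatty acid-binding protein gene, was at 41.8 CPM against 0.252 to 1.34 CPM in CTRL. On day 2 the adipocyte sum was 196.2, 37.1 and 55.2 CPM in EXP, beside Hp at 417.2, 38.3 and 202.7 CPM, and 31.9 to 36.7 CPM in CTRL. On day 1 the sum was lower in EXP, at 18.2 to 34.3 CPM against 33.2 to 57.5 CPM. Fibroblast markers summed to 83860 to 280900 CPM in EXP on day 4 and 268200 to 370300 CPM in CTRL. Most of these sums was Col1a1, Col1a2 and Col3a1, so they mainly give collagen levels. Of the 10 fibroblast markers 1 was higher and 4 were lower in EXP on day 4. Pdgfra was at 295.3 to 864.5 CPM in EXP and 274.7 to 334.9 CPM in CTRL, and Cd34 at 442 to 1553 and 1384 to 2348 CPM. The part of fat cells in the Hp levels was not tested.

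**Figure D3:**
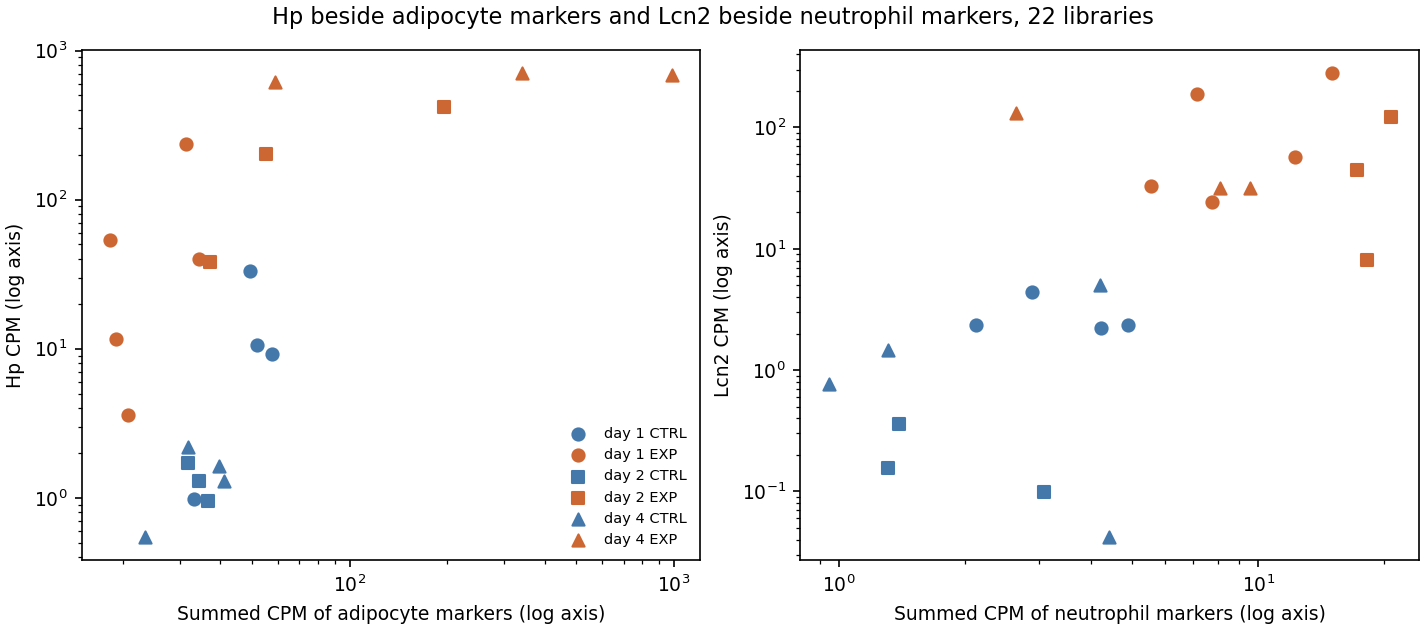
Hp against the summed CPM of adipocyte markers (left) and Lcn2 against that of neutrophil markers (right), on log axes, with 1 symbol per library. On day 4 (triangles) the EXP libraries keep Hp between 612.6 and 708.6 CPM while the adipocyte sum runs from 58.9 to 986.9 CPM.

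Both Reg genes were at or near 0 in CTRL. Reg3g (ENSMUSG00000030017) was at 0, 0, 0 and 0.0383 CPM in CTRL on day 1 and at 0.0349, 1.82, 0.799, 0.541 and 0 CPM in EXP, so the arms overlapped. On day 2 it was at 0, 0 and 0.0449 CPM in CTRL and at 6.73, 6.14 and 21.7 CPM in EXP. On day 4 it was at 0, 0.129, 0 and 0 CPM in CTRL and at 29.7, 13.6 and 2.64 CPM in EXP. No CTRL library had more than 3 counts, so only lower bounds are given against a floor of 3 counts per library: at least 5.4-fold higher on day 1, 78.4-fold on day 2 and 116-fold on day 4. Each rested much on 1 library, with 2.91-fold without day 1 EXP replicate 2, 43.8-fold without day 2 EXP replicate 3 and 61.4-fold without day 4 EXP replicate 1. Such bounds cover counting error only. Every day 2 EXP library was above every day 1 EXP library for Reg3g (7.26% of all tested genes), and so was every day 4 library. Its mean was 18 times that of day 1 on day 2 and 24 times on day 4; these were 10.1 without day 2 EXP replicate 3, 12.7 without day 4 EXP replicate 1, and 33.5 and 44.6 without day 1 EXP replicate 2.

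Reg1 (ENSMUSG00000059654), named for its expression in regenerating pancreatic islets, was lower and more variable. On day 1 it was at 0.453, 0, 0.143 and 0.153 CPM in CTRL and at 0.384, 3.03, 0, 0.510 and 0 CPM in EXP. These overlapped, and the log2 fold change of 2.02 (SE 1.21) was 0.28 without EXP replicate 2 and 2.87 without CTRL replicate 1. On day 2 it was at 0.0498, 0 and 0 CPM in CTRL and at 0.957, 2.24 and 2.58 CPM in EXP, at least 13.1-fold higher. On day 4 it was at 0.0967, 0, 0 and 0 CPM in CTRL and at 26.9, 12.2 and 0.786 CPM in EXP, at least 100-fold higher, or 49.0-fold without EXP replicate 1. The day 4 EXP libraries thus differed 34.3-fold among themselves. The order of Reg1 and Reg3g over those 3 libraries was the same. It ran against that of the adipocyte sum and with that of the summed lymphocyte markers, which stood at 30.5, 15.1 and 13.96 CPM in EXP replicates 1, 2 and 3 and at 0.293 to 7.32 CPM in CTRL. Most of the lymphocyte sums in these EXP libraries was Cd3e, at 12.96 to 28.9 CPM. Ptprc did not exceed 0.243 CPM there, Trac 0.104 CPM and Cd3d 0.0714 CPM, so the Reg genes are set mainly beside Cd3e. Endothelial markers summed to 28.0, 58.0 and 24.8 CPM in EXP replicates 1, 2 and 3 against 4.16 to 11.6 CPM in CTRL. Most of these EXP sums was Tek, at 16.9 to 44.9 CPM. Of the tested markers, 2 of 3 for lymphocytes and 2 of 7 for endothelium were higher in EXP on day 4. The part of these cells in the Reg levels was not tested.

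**Figure D4:**
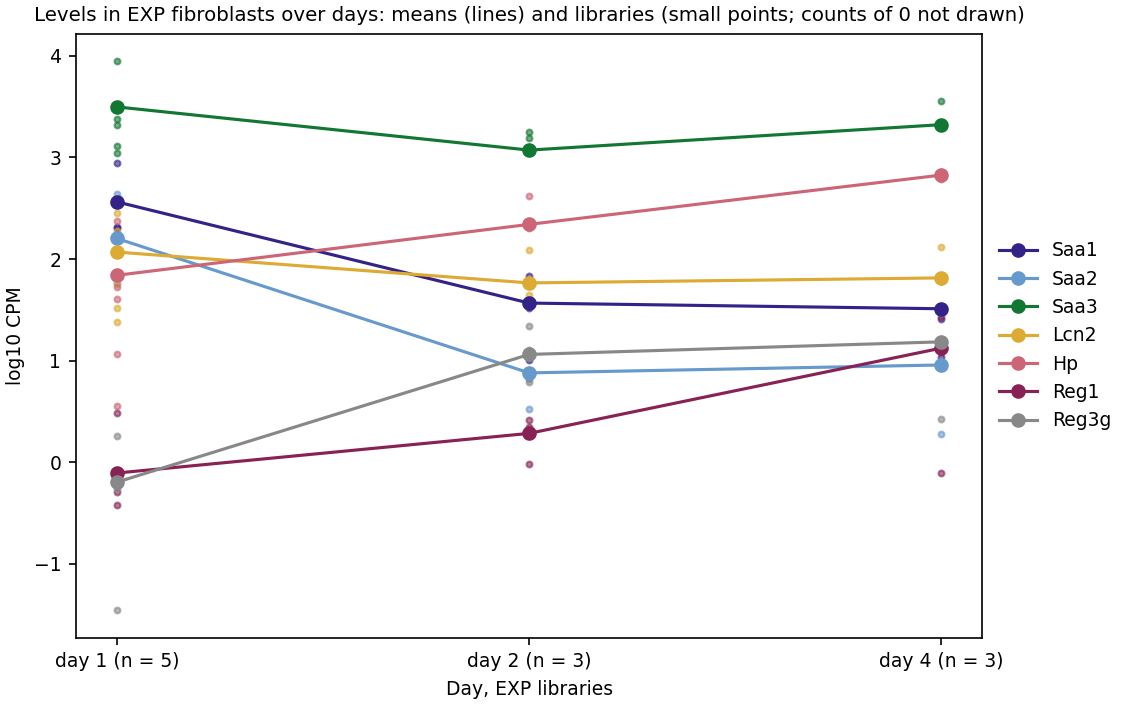
Log10 CPM in the EXP libraries by day, with lines through the group means and small points for libraries. Means of Saa1 and Saa2 are highest on day 1, at 365.2 and 159.4 CPM, and that of Hp on day 4, at 670.3 CPM.

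The contrasts behind the choice of members hold the CTRL levels too, so the change over days within CTRL is described without a test. Over all tested genes, 51 (0.291%) passed edgeR's joint test of that change. Hp had log2 differences from day 1 of -3.34 on day 2 and -3.26 on day 4. The day 4 value was -2.31 without day 1 CTRL replicate 1, the library with 33.1 CPM. Day 1 CTRL replicate 2, at 0.975 CPM, lay within the CTRL ranges of days 2 and 4. For Saa3 the log2 differences were -3.38 and 0.42, and for Saa1 -2.63 and -0.24. The day 4 values of Saa3 and Saa1 depended on CTRL replicate 4 of that day, and were -0.97 and -1.54 without it. The day 2 CTRL libraries were all below the day 1 CTRL libraries for Saa1, Saa3 and Lcn2, an order that 8.90% of tested genes had. They were all below those of day 4 for Saa1 and Saa3 (3.78%). Day 4 CTRL replicate 4 was high for Saa1, Saa2, Saa3 and Lcn2 at once, and without it the CTRL means of day 4 were 3.04 CPM for Saa1, 72.5 CPM for Saa3 and 0.755 CPM for Lcn2.

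The day 1 differences were also read within the split of libraries described above. On the log2 scale the ratio of means in the 3 CTRL and 2 EXP libraries on one side was 5.79 for Saa1, 4.06 for Saa3 and 5.35 for Lcn2. In the 1 CTRL and 3 EXP libraries on the other side it was 4.39, 4.51 and 5.67. For Hp the values were 3.26 and 1.11, and for Reg1 3.10 and 0.15. On day 4, without the 2 CTRL libraries on the other side, the log2 ratio was 3.16 for Saa1 and 2.98 for Saa2, and 8.60 for Hp.

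Across the 22 libraries, log2 CPM of Saa1 and Saa2 correlated with Pearson's r = 0.97, and those of Saa3 and Lcn2 with r = 0.969. With group means removed the values were 0.83 and 0.87. Reg1 and Reg3g had r = 0.863, or 0.587 with group means removed, and Saa1 and Reg1 had 0.3 and -0.17. Libraries share days, arms and depth, so these describe the data only. Over the same 22 libraries, the genes outside the members with the most similar log2 CPM were Ndufaf4 for Saa1 (r = 0.939) and Saa2 (0.918), and Cxcl1, a neutrophil-attracting chemokine, for Saa3 (0.925). For Lcn2 they were Prg4 (0.943), which encodes lubricin, Csf3 (0.943), the granulocyte growth factor G-CSF, and Lrg1 (0.942). Kng1, a kininogen gene, was nearest to Hp (0.947), Gc, the vitamin D-binding protein gene, to Reg1 (0.908), and Prdx5, a peroxiredoxin gene, to Reg3g (0.904).

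Genes around these 7 were counted in 5 lists written from general knowledge, with earlier results of these data known. Over all tested genes, 28.6% passed on day 1, 13.4% on day 2 and 22.5% on day 4; those lower in EXP made up 14.7%, 5.71% and 9.66%. Among 25 other acute-phase genes, 14 were tested, and those that passed edgeR's threshold were all higher in EXP: 6 on day 1, 4 on day 2 and 7 on day 4. Median log2 fold changes were 1.05, 1.56 and 1.43, beside 0.02, 0.02 and 0.03 over all tested genes. Lrg1, a leucine-rich glycoprotein of the acute phase, rose on day 1 by 4.18 on the log2 scale (SE 0.76, edgeR adjusted p = 0.000544), with means of 4.05 ± 2.77 CPM over 4 CTRL libraries and 73.5 ± 45.9 CPM over 5 EXP libraries (± SD here and in the following). Its log2 fold change was 6.19 on day 2, or 5.53 without EXP replicate 1 and 7.67 without CTRL replicate 3, and 6.40 on day 4, or 5.77 without EXP replicate 3 and 7.25 without CTRL replicate 4. Lbp, the lipopolysaccharide-binding protein gene, rose by 1.66, 3.88 and 4.41 (edgeR adjusted p = 0.0259 on day 1). Its day 1 call was lost when any of CTRL replicates 2, 3 and 4 or EXP replicates 2 and 3 was left out, and the day 1 count of 6 was 3 without CTRL replicate 3, CTRL replicate 4 or EXP replicate 3. The day 2 count of 4 was 2 without EXP replicate 1 or 3. Hpx, whose product hemopexin binds haem, averaged 7.49 ± 4.93 CPM over the 3 EXP libraries of day 4 and had 3 counts or fewer in each CTRL library, so that it was at least 56.6-fold higher, or 35.1-fold without EXP replicate 3. Most liver-type genes of the list, among them Crp, Apcs, Fga, Fgb, Fgg and Orm1, had too few counts to test.

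Of 27 other antimicrobial genes 9 were tested. Higher in EXP were 2 on day 1, 2 on day 2 and 3 on day 4, and 0, 2 and 1 were lower. The higher genes were Slpi and S100a8 on each day and Camp on day 4. S100a8 and Camp also stand among the neutrophil markers above. S100a8 averaged only 0.344, 1.88 and 1.15 CPM in EXP on days 1, 2 and 4. Camp on day 4 was at least 9.18-fold higher, but 1.21-fold without EXP replicate 1. The day 4 count of 3 was 1 with day 4 libraries alone and 2 to 5 leaving out 1 library. Slpi, a secreted protease inhibitor with antimicrobial action, rose on each day, with log2 fold changes of 2.30 (SE 0.53), 5.97 (SE 0.74) and 4.29 (SE 0.61), and edgeR adjusted p-values of 0.00304, 9.72e-05 and 0.000291. The day 2 means were 6.33 ± 3.49 CPM for CTRL and 397.8 ± 264.3 CPM for EXP, over 3 libraries each. Ang and Rnase4, ribonuclease genes that share exons so that their counts cannot be fully told apart, fell by 1.06 and 0.86 on the log2 scale on day 2 (edgeR adjusted p = 0.0282 and 0.0407). Both of these calls were lost with library totals in place of TMM scaling and when any 1 day 2 library other than EXP replicate 2 was left out. The other Reg genes of the list were all left untested.

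Of 24 genes of inducing cytokines, their receptors and kinases, 17 were tested. Higher in EXP were 7 on day 1, 6 on day 2 and 2 on day 4, and 3, 0 and 3 were lower. Lif, an IL-6 family cytokine, rose on day 1 by 3.31 on the log2 scale (SE 0.33, edgeR adjusted p = 3.92e-06), with means of 19.3 ± 3.03 CPM over 4 CTRL libraries and 190.8 ± 49.4 CPM over 5 EXP libraries. It rose by 1.74 on day 2 and did not pass on day 4. Il11, of the same family, rose by 2.96, 4.31 and 5.89 on the 3 days (4.22 on day 4 without EXP replicate 1), and Il1r1, the IL-1 receptor, was higher by 0.85 on day 4 (edgeR adjusted p = 0.0160). The Il1r1 call was lost without CTRL replicate 3 or EXP replicate 1. Il6ra had a log2 fold change of -1.27 and Il1rap of -0.79 on day 4, and at least 5 of the 7 fits that left out a day 4 library lost each call. The count of 3 lower genes was 1 when CTRL replicate 2, 3 or 4 or EXP replicate 1 or 2 was left out. Il17a, Il22 and Il1b, known inducers of Lcn2 or Reg3g in skin, had too few counts to test.

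Of 20 genes of transcription factors and their inhibitors, all tested, 3 were higher and 1 lower on day 1, 0 and 2 on day 2, and 0 and 13 on day 4. Nfkb1, an NF-κB subunit, rose on day 1 by 1.38 on the log2 scale (SE 0.26, edgeR adjusted p = 0.000536) and Stat3 by 0.59 (SE 0.18, edgeR adjusted p = 0.0165). Without CTRL replicate 4 the Stat3 call was lost and the count of 3 higher genes was 1. The 2 lower genes of day 2, Socs3 and Nfkbia, numbered 0 when any 1 day 2 library other than EXP replicate 2 was left out, 0 with library totals, 5 with DESeq2 and 9 with day 2 libraries alone. Socs3, the feedback inhibitor of STAT3 signalling, fell on day 1, with means of 1128 ± 313.4 CPM over 4 CTRL libraries and 457.3 ± 120.4 CPM over 5 EXP libraries (log2 fold change -1.30, edgeR adjusted p = 0.000943). On day 4 Cebpd, a C/EBP factor, averaged 270.2 ± 204.5 CPM over 4 CTRL libraries and 15.3 ± 9.91 CPM over 3 EXP libraries. Its log2 fold change was -4.15 (SE 0.85, edgeR adjusted p = 0.00325), and it passed in every alternative fit run. The count of 13 was less firm. It was 5 without EXP replicate 1, 7 without EXP replicate 2, 7 without CTRL replicate 4, 7 with a term for the split of libraries, 8 with library totals and 3 with day 4 libraries alone. In each of these fits 0 were higher.

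Of 12 genes of receptors and partners of the members, 9 were tested. Higher and lower in EXP were 2 and 2 on day 1, 2 and 1 on day 2, and 2 and 4 on day 4. Scarb1, a lipoprotein receptor that also binds serum amyloid A, rose on each day by 1.26 (SE 0.19), 2.88 (SE 0.24) and 1.76 (SE 0.21) on the log2 scale. Its edgeR adjusted p-values were 7.95e-05, 6.82e-07 and 8.78e-05. Slc22a17, described as a lipocalin 2 receptor, had log2 fold changes of -1.73, -1.88 and -1.64 and passed on all 3 days, with the day 2 call lost without EXP replicate 1 and the day 4 call without EXP replicate 1 or 2. Mmp9, whose product forms a complex with lipocalin 2, rose on day 4 by 5.37 on the log2 scale (SE 1.18, edgeR adjusted p = 0.00426), with means of 0.168 ± 0.151 CPM over 4 CTRL libraries and 7.06 ± 8.30 CPM over 3 EXP libraries. The value was 3.75 without EXP replicate 1 and 6.01 without CTRL replicate 4. On day 1 it was called lower. Tlr2, which senses bacterial lipoproteins, fell on day 4 by 1.52 on the log2 scale (edgeR adjusted p = 0.00850), a call lost without EXP replicate 2. The 4 lower genes of day 4 numbered 0 without that library, 1 without EXP replicate 1 and 2 without CTRL replicate 4.

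**Figure D5:**
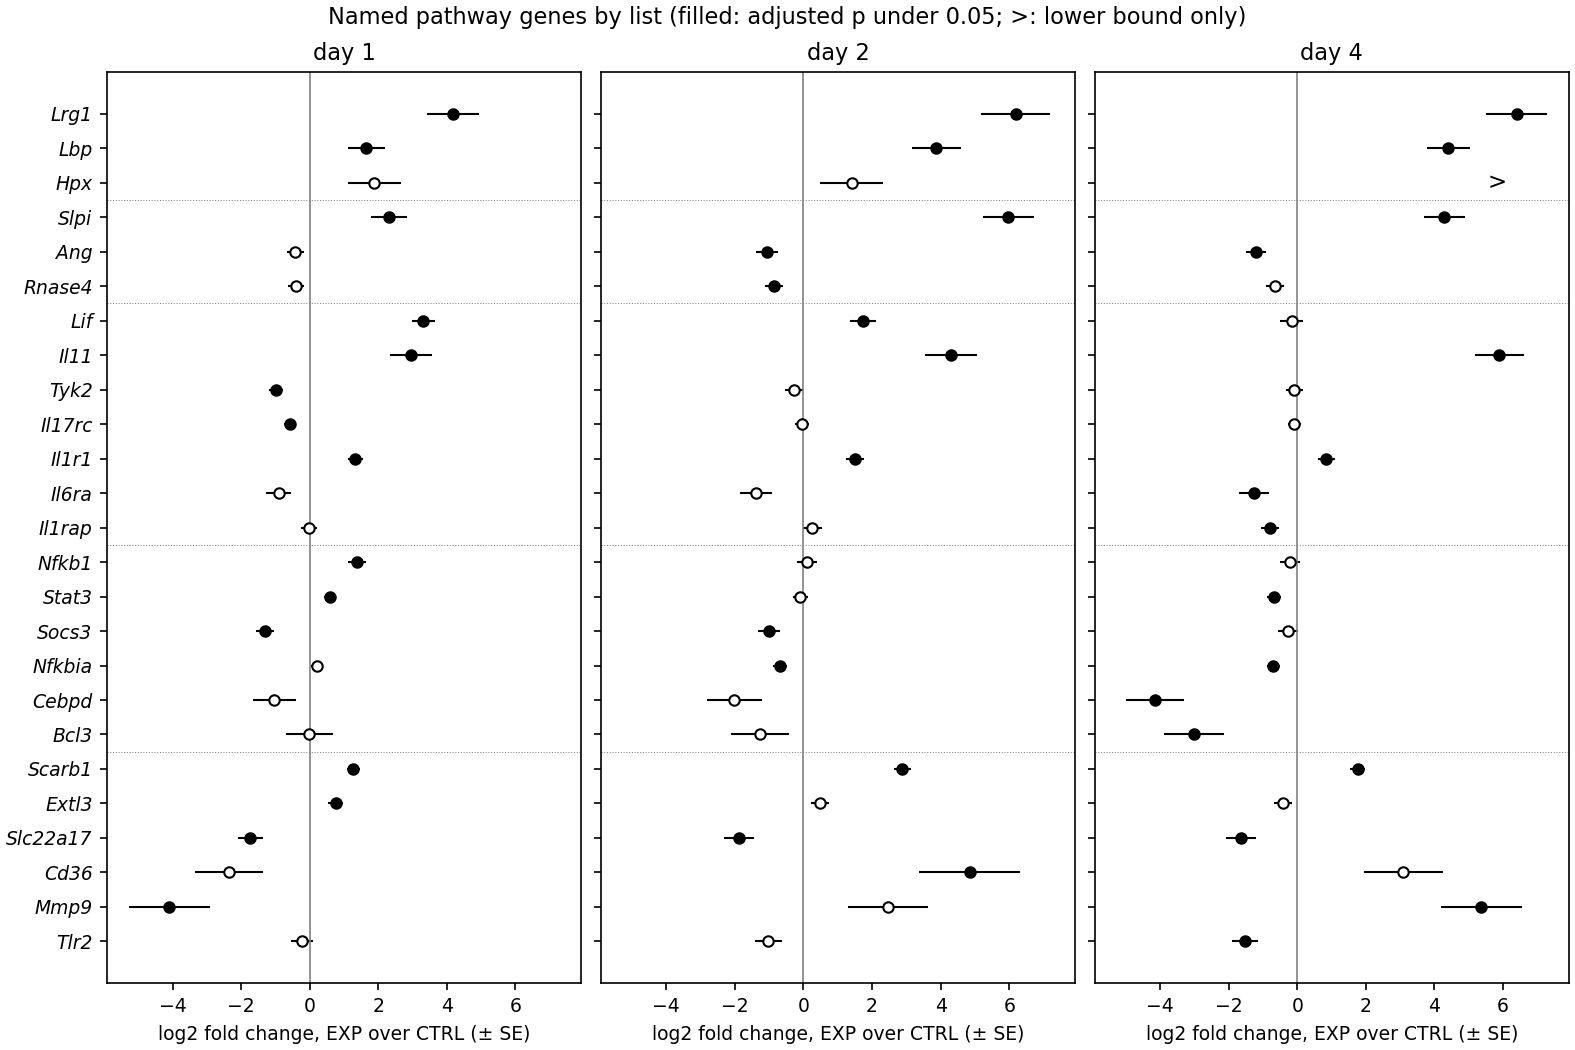
Log2 fold change of EXP over CTRL with its SE for the pathway genes chosen by the naming rule, by day, in the order acute-phase, antimicrobial, cytokine and receptor, transcription factor, and partner genes; filled points had an edgeR adjusted p under 0.05 and the arrowhead is a lower bound. Lrg1 stands at 4.18, 6.19 and 6.40 and Cebpd at -4.15 on day 4.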

How the data were processed

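The deposited data are raw read counts from the authors, in 1 table with Ensembl gene identifiers as rows and the 22 libraries as columns. Per the submitters' processing notes, reads were trimmed with Trimmomatic and build mm39 was used; the aligner, counter, annotation and strand setting are not given in the sources used here. Per the labels' protocols, RNA was extracted with RNeasy Micro and sequenced from ultra-low-input libraries as read pairs of 150 bases. Symbols came from GENCODE M21, which named 52081 of the 55414 identifiers, and the 0 columns without a label needed no removal.

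Counts were analysed in R 4.3.3 with edgeR 4.0.16: filterByExpr on the 6 day-and-arm groups (minimum count 10), TMM scaling, and 1 quasi-likelihood fit of all libraries with a mean per group (16 residual degrees of freedom), Benjamini-Hochberg adjustment over 17554 genes, and a call at an adjusted p under 0.05. Log2 CPM used a prior count of 2. A group at 3 counts or fewer in every library was set to a floor of 3 counts per library (averaged as CPM), and its fold is a lower bound. The members and gene lists were chosen with earlier results of these data known, from contrasts that hold EXP and CTRL levels, so no p is given for members, also not for the planned test over days within CTRL. Named pathway genes were, per list and day, up to 2 called genes with the largest rise and 2 with the largest fall at a mean of at least 1 CPM; the 3 genes most correlated with each member were listed and the nearest named. Lists of markers of 9 cell types were summed as CPM per library. No 2 replicates were merged, since the lowest ratio of chi-square to its degrees of freedom between any of them was 26.7. On simulated day 1 counts for 17150 genes, the test recovered 27 of 100 genes changed 2-fold and 69 of 100 changed 4-fold, with 5 false calls among 101. Per kilobase values used the length of 1 annotated transcript per gene. Alternatives were DESeq2 1.42.0, other scaling, no count filter, a replicate block, the library split as covariate, single-day fits, and leaving out each library.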

Additional observations from a re-analysis of the deposited data

Results flagged for a closer look

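In groups of 4 or 5 libraries, a library was singled out when its gap to the next one took up most of the group's range (Dixon's test at the 95% level). Of 18 such gene-and-group sets examined, 9 had a library apart, and 3 sets at the floor were not examined. The test was run on CPM, and its rate of 1 in 20, or 0.9 sets, holds only for normally distributed values. CPM of these genes was skewed to high values, and each of the 9 libraries was the highest of its group. The 9 sets can therefore not be measured against 0.9. Sets of the same library and of correlated genes are not independent.

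Day 1 EXP replicate 3 stood above its group for Saa1 (877.4 CPM, others 177.7 to 359.9), Saa2 (440.8 CPM, others 57.5 to 156.3) and Saa3 (8842 CPM, others 1111 to 2377). Day 1 EXP replicate 2 stood above its group for Hp (237.5 CPM, others 3.61 to 53.5) and Reg1 (3.03 CPM, others 0 to 0.509). Day 4 CTRL replicate 4 did so for Saa1 (20.9 CPM, others 1.84 to 4.50) and Saa2 (9.52 CPM, others 0.126 to 1.24). Saa1 in day 1 CTRL replicate 4 was at 19.96 CPM, with the others at 4.29 to 6.33. Lcn2 in day 1 CTRL replicate 1 was at 4.37 CPM, with the others at 2.22 to 2.36.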

How the results depend on the processing

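All 306 alternative log2 fold changes of the members between EXP and CTRL were positive, and 8 moved by more than their spread. As the members were picked for being high in EXP and the fits share libraries, this sign was favoured in advance and carries no evidence. The lowest value for Reg1 on day 1 with 1 library left out was 0.28. The count of genes changed within CTRL over days (51) was 520 with DESeq2, 163 with library totals, 29 with the library split as covariate and 5 to 92 leaving out 1 library. EXP against CTRL on day 2 (2359 genes) gave 4632 with library totals. Day 4 (3943) gave 1128 with libraries of that day only. Of the pathway genes, 30 passed on day 2 (19) and 14 on day 4 (35) in single-day fits. Leaving out 1 library gave 4024 to 4830 genes on day 1 (5017), 891 to 2177 on day 2, 1633 to 5011 on day 4 and 1367 to 3415 within EXP (2502). For pathway genes it gave 20 to 26 on day 1 (26), 9 to 20 on day 2 and 19 to 37 on day 4. The lowest counts of genes and of pathway genes came without EXP replicate 1 on days 2 and 4. On day 1 they came without CTRL replicate 3 (4024) and CTRL replicate 4 (20), and within EXP without day 4 EXP replicate 2. The causes were not tested. Library totals in place of TMM shifted the median log2 fold change by 0.19, 0.47 and 0.33 on the 3 days and the share of called genes higher in EXP from 48.7, 57.5 and 57% to 66.2, 90.5 and 80.8%.

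Of 10 pairs with the same replicate number within a day, 3 deviated together (correlation over 0.1; range -0.07 to 0.16), so numbers were not taken as pairs. With a replicate block within day the counts were 4337, 2210 and 2702 genes, and 25, 21 and 29 pathway genes. With a replicate block over days they were 19 within CTRL and 1432 within EXP. At 3 counts, the floor is about 0.118 to 0.147 CPM, so Reg levels below it in CTRL could not be ordered.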
